A study of Mus musculus with 13 samples.

Results

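The laminin and integrin genes of mouse gastrocnemius were taken by symbol from a table of 21868 genes. A gene was a member if its symbol was Lama, Lamb or Lamc with a number, or began with Itga or Itgb, and the Itgb1bp genes were left out. The rule found 40 genes, of which 11 encode laminin chains, 18 integrin alpha subunits and 9 integrin beta subunits. The other 2, Itgbl1 and Itgb3bp, share the symbol but encode no chain of a laminin or integrin. The mean normalized count reached 10 in 34 of the 40 genes, and only these were tested.

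Laminins are trimers of an alpha, a beta and a gamma chain that polymerize into the sheet of the basement membrane around each muscle fibre, capillary and nerve. Integrins are membrane receptors made of an alpha and a beta subunit. Each pairing binds its own set of matrix or cell-surface ligands, and most pairings link these to the actin cytoskeleton. In skeletal muscle the fibre is held to its laminin sheet by the integrin containing the products of Itga7 and Itgb1 and by the dystrophin-dystroglycan complex, and loss of the Lama2 chain causes a congenital muscular dystrophy.

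RNA was sequenced from 13 male C57BL/6N mice that entered the study at 7 weeks of age, were fed a diet with 60 kcal% fat for 15 to 17 weeks and then returned to chow. For the final 3 weeks, 5 mice received vehicle (phosphate-buffered saline), 5 received semaglutide, a GLP-1 receptor agonist, at 30 nM/kg/day by intraperitoneal injection, and 3 received the same dose of semaglutide with drinking water that held a ketone ester at 0.114 g/mL. The labels add placebo to the vehicle and semaglutide groups. The question was how the muscle transcriptome differed under semaglutide and whether the ketone ester altered that difference, and no group given the ketone ester alone was analysed here. The samples were pieces of whole muscle, so the values are averages over fibres, connective tissue, vessels, nerve and immune cells. Between 15319471 and 23498162 reads were counted on genes per mouse, and semaglutide mouse 13 stood apart from its group, with a score of -9.12 on the first principal component against 31.8 to 52.5 in the other 4 semaglutide-treated mice and -24.5 to -12.9 in vehicle-treated mice. All values below are normalized counts, which are read counts of a gene divided by a scaling factor of the library. Mice are listed in the order 1, 2, 3, 4 and 5 for vehicle, 13, 14, 15, 16 and 17 for semaglutide, and 19, 21 and 22 for semaglutide + ketone ester. Whether the mice shared cages or litters is not given, so a p-value measures only the spread between these animals.

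Semaglutide-treated mice had lower transcript levels of 10 laminin and integrin genes and higher levels of 2 than vehicle-treated mice. The genes that fell were Lama2, Lama3, Lama4, Lamb1, Lamc3, Itga4, Itga8, Itgav, Itgb6 and Itgbl1, and the genes that rose were Itga5 and Itgb4. These 12 genes were 35.3% of the 34 tested, where 26.5% of all 12303 genes tested differed (limma, Benjamini-Hochberg adjusted p under 0.05). Lower levels were found in 13.9% of all genes and higher levels in 12.5%. The median log2 fold change was -0.22 over the 34 members and 0.00 over all genes, and 23 of the 34 members lay below the median of all genes. When the columns were instead rescaled to equal totals, the median of all genes moved to 0.17, and 5 members were called lower and 4 higher. Itga7 and Lama5 joined the higher genes, while Lama2, Lama3, Lama4, Itga4 and Itga8 no longer passed. Column totals include the muscle fibre transcripts, whose 10 markers summed to medians of 2.96e+06 under vehicle and 2.22e+06 under semaglutide. Their part in the shift was not tested. With quantile normalization the median of all genes was 0.03. The members' median relative to all genes was -0.22 with the deposited scaling and with equal totals. Rescaling shifts all log2 values of a mouse by nearly the same amount, so this relative median could hardly change and is no check. In whole muscle, fewer cells of a type and less RNA per cell cannot be told apart.

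Mice given semaglutide + ketone ester had higher levels of 7 of the 34 genes than mice given semaglutide, and none was lower. These were Lama4, Lamb2, Lamc3, Itga4, Itga8, Itgav and Itgb6, or 20.6% of the members tested, while 20.7% of all genes differed, 10% upward and 10.7% downward. The median log2 fold change was 0.18 over the members and 0.00 over all genes. With equal totals the median of all genes was -0.24, only Itgb6 and Lamc3 were called higher, and Itga5, Itga7, Itga9, Itgb4, Itgb5 and Lama5 were called lower. Between 2 and 11 members passed when 1 mouse was left out, 11 without mouse 13 (3 of them lower), 4 without mouse 17, 3 without mouse 22 and 2 without either mouse 19 or mouse 21. Only Itgb6 passed when the vehicle-treated mice were left out of the model. The ketone ester and semaglutide groups did not overlap in 8 of the 34 members tested (Lama2, Lama4, Lamb2, Lamc3, Itga5, Itgav, Itgb6 and Itgbl1), and 20.1% of all genes had no overlap.

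Levels in mice given semaglutide + ketone ester did not differ from vehicle in any of the 34 members by limma, against 0.366% of all genes. At an unadjusted p under 0.05 there were 2, Lamc3 and Itgb5, against 10.4% of all genes, and edgeR and DESeq2 on the recovered reads also called 0. This comparison shares the vehicle-treated mice with the first and the ketone ester-treated mice with the second, so the 3 sets of values are not independent.

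**Figure D1:**
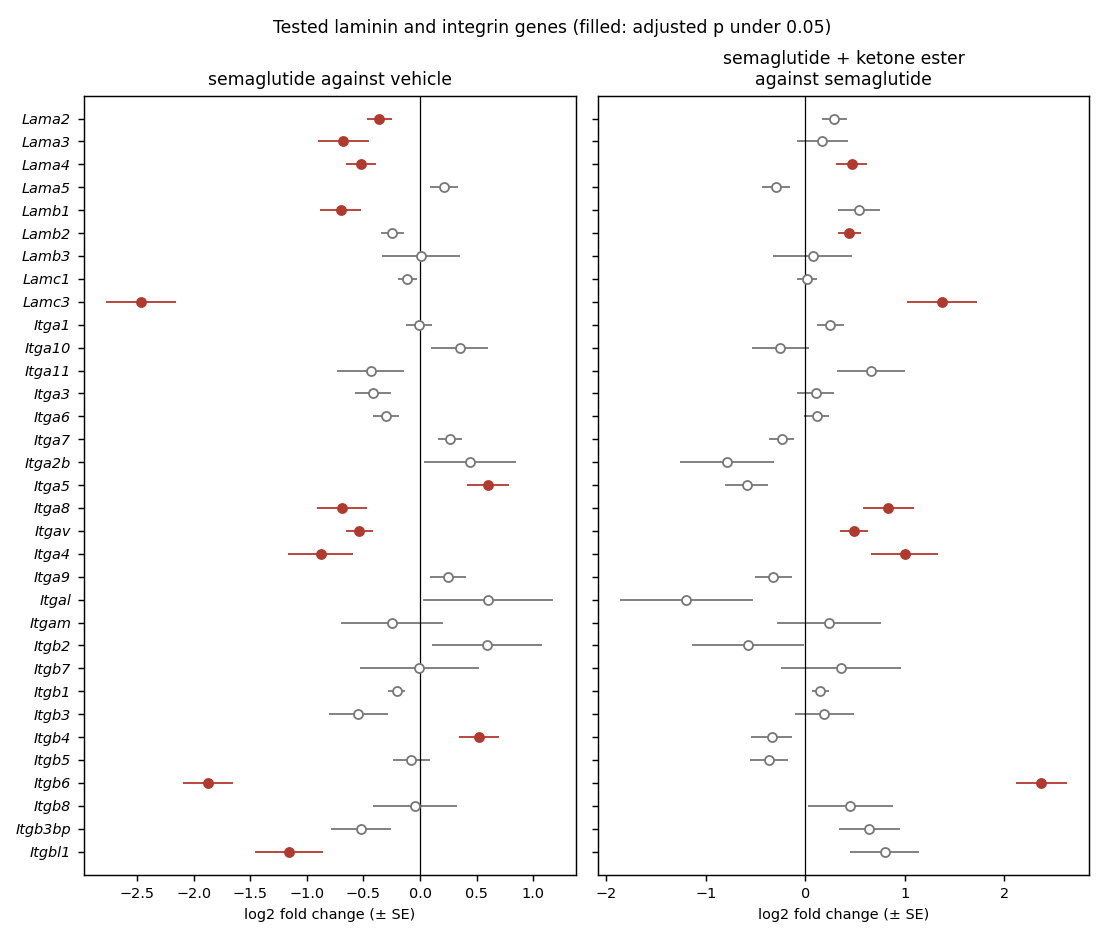
Log2 fold change of the tested laminin and integrin genes, with 1 uncalled gene not plotted, for semaglutide against vehicle (left) and semaglutide + ketone ester against semaglutide (right), with bars for the standard error. Filled points passed an adjusted p of 0.05 in limma. With the deposited scaling 10 of 12 filled points on the left lie below 0 and all 7 on the right lie above it, while with equal totals 5 and 4 genes were called lower and higher on the left and 6 and 2 on the right.

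Among the laminin alpha chains, 3 of the 4 tested were lower under semaglutide, while with equal totals none was lower and Lama5 was higher. Lama4 (mm10 chr10:38965515-39110188, plus strand), the alpha chain of vascular and endoneurial basement membranes, had normalized counts of 388, 508, 419, 456 and 488 in vehicle-treated mice, 380.1, 346, 289, 345 and 230.5 in semaglutide-treated mice, and 411, 502 and 392 with the ketone ester. Every semaglutide value lay below every value of the other 2 groups. In each such comparison a log2 fold change is taken on log2(normalized count + 1). It was -0.52 ± 0.13 (SE; adjusted p = 0.0108) against vehicle and 0.46 ± 0.15 (adjusted p = 0.0445) for the ketone ester against semaglutide. The first call held without any 1 mouse (adjusted p up to 0.0309), and the second was lost without any 1 of mice 2, 3, 4, 5, 15, 17, 19, 21 and 22 (up to 0.199). With equal totals the fold changes were -0.35 (adjusted p = 0.0772) and 0.23 (adjusted p = 0.312).

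Lama2 (chr10:26980036-27619758, minus strand), the chain of the laminin sheet around adult muscle fibres, had counts of 582, 899, 853, 858 and 863 in vehicle-treated mice, 632, 599.5, 681, 583 and 628 in semaglutide-treated mice, and 817, 759.8 and 714 with the ketone ester. Vehicle mouse 1 lay at the level of the semaglutide-treated mice, and the other 4 vehicle values were all higher than any semaglutide value. The change under semaglutide was -0.36 ± 0.11 (adjusted p = 0.0257), was lost without any 1 of mice 2, 3, 4, 5, 14 and 16 (adjusted p up to 0.0665) and was -0.19 with equal totals (adjusted p = 0.21). The 3 ketone ester values lay above the 5 semaglutide values, but the difference of 0.29 ± 0.13 did not pass (adjusted p = 0.117).

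Lama3, best known from epithelial basement membranes, was found at low levels, with counts of 35.5, 42.1, 29.7, 42.1 and 41.9 in vehicle-treated mice, 30.0, 21.4, 23.3, 21.4 and 21.6 in semaglutide-treated mice, and 38.9, 16.9 and 27.6 with the ketone ester. Only mouse 13 brought the semaglutide group into the vehicle range, while the 3 ketone ester values spanned both groups. The change under semaglutide was -0.68 ± 0.22 (adjusted p = 0.0362), and it was lost without any 1 of mice 1, 2, 4, 5, 14, 15, 16 and 17 (adjusted p up to 0.0801) and with equal totals (-0.51, adjusted p = 0.0942). Lama5, a chain of vascular and many epithelial basement membranes, was not called, with means of 969.6 ± 156 (SD, n = 5), 1122 ± 153 (SD, n = 5) and 911 ± 85.6 (SD, n = 3) for vehicle, semaglutide and semaglutide + ketone ester. Lama1, the chain of early embryonic basement membranes, was below the mean of 10, with counts from 0 to 3.43.

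Per kilobase of exon, Lama5, Lama2 and Lama4 were at nearly the same level in vehicle-treated mice, with 34.7%, 33.5% and 30.3% of the alpha chain signal. Under semaglutide the Lama5 share was 45.3%, with a range over mice of 37.3% to 51.7% against 29.8% to 45.2% in vehicle-treated mice, and the Lama2 and Lama4 shares were 29.3% and 24.3%. With the ketone ester the shares were 34.4%, 33.5% and 31.0%. A share does not depend on how a library was scaled, and these shares were not tested.

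Of the beta chains, Lamb1 fell under semaglutide and Lamb2 did not. Lamb1 (chr12:31265234-31329644, plus strand), the beta chain of vessel and fibre laminins, had counts of 354, 554, 371, 418 and 604 in vehicle-treated mice, 307, 208, 274, 316 and 289 in semaglutide-treated mice, and 407, 536 and 297 with the ketone ester. The vehicle and semaglutide groups did not overlap, and 1 of the 3 ketone ester-treated mice lay within the semaglutide range. The change under semaglutide was -0.70 ± 0.18 (adjusted p = 0.0123) and was called in every alternative and without any 1 mouse. The ketone ester difference of 0.54 ± 0.21 did not pass (adjusted p = 0.0835).

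Lamb2 (chr9:108479736-108490530, plus strand), the beta chain concentrated at the neuromuscular junction, was the most abundant laminin transcript per kilobase. It had counts of 2132, 2446, 2165, 2336 and 2558 in vehicle-treated mice, 2435, 2148, 1841, 1717 and 1753 in semaglutide-treated mice, and 2839.6, 2465 and 2705 with the ketone ester. Mice 13 and 14 lay within the vehicle range and the other 3 semaglutide-treated mice below it, giving -0.24 ± 0.10, which did not pass (adjusted p = 0.0859). All 3 ketone ester values exceeded all 5 semaglutide values, and the difference of 0.44 ± 0.12 passed (adjusted p = 0.016). It was lost without mouse 19 or mouse 22 (adjusted p up to 0.0653) and with equal totals (0.21, adjusted p = 0.159). Lamb3, the partner of Lama3 in epithelial laminin, ranged from 16.4 to 59.7 over the 13 mice with no difference between groups beyond that spread (adjusted p of at least 0.919 in each pair).

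**Figure D2:**
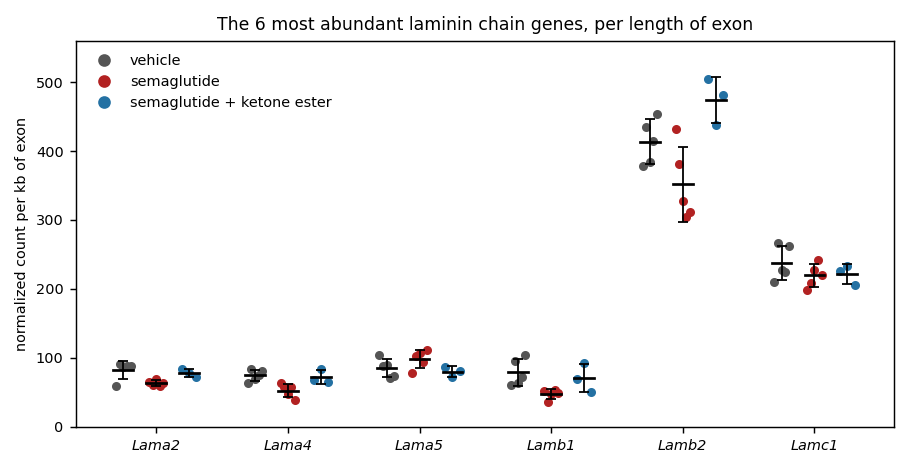
Normalized count per kilobase of exon of Lama2, Lama4, Lama5, Lamb1, Lamb2 and Lamc1 in each mouse (points), with the group mean and SD (bars). Lamb2 had the highest level in all 3 groups, at 413, 352 and 474 per kilobase in vehicle, semaglutide and semaglutide + ketone ester, and Lama5, Lama2 and Lama4 lay close together in vehicle-treated mice.

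The gamma chain genes differed most from one another. Lamc3 (chr2:31887291-31946539, plus strand), a gamma chain of restricted tissue distribution, had counts of 35.5, 47.0, 32.2, 35.5 and 33.8 in vehicle-treated mice, 8.70, 4.51, 7.78, 2.91 and 6.71 in semaglutide-treated mice, and 24.3, 16.9 and 10.8 with the ketone ester. The 3 groups did not overlap at all, and the ketone ester-treated mice lay between the others. The log2 fold change was -2.47 ± 0.31 (adjusted p = 0.000112) under semaglutide, the largest fall among the members, and 1.37 ± 0.35 (adjusted p = 0.0151) with the ketone ester. The first was called in the 11 alternative settings in which Lamc3 was tested and without any 1 mouse, and the second was lost without mouse 19 or mouse 21 (adjusted p up to 0.0737) and without the vehicle-treated mice in the model (0.0892). Against vehicle the ketone ester-treated mice differed by -1.10 ± 0.35, which did not pass (adjusted p = 0.256). The semaglutide values are close to the level of 3 reads, which was 2.24 to 3.38 normalized counts in these mice, so the size of the change depends on few reads. An antisense gene, Gm13441, shares 5.60% of the exon bases of Lamc3, and how the counter treated strand is not given.

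Lamc1, the gamma chain of most laminins, made up 94.1% of the gamma chain signal per kilobase in vehicle-treated mice and did not differ between groups, with means of 1815 ± 188, 1674 ± 129 and 1691 ± 111 (SD, n = 5, 5 and 3). The Lamc3 share was 2.48% under vehicle, 0.462% under semaglutide and 1.26% with the ketone ester.

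Among the integrins the widest difference was in Itgb6 (chr2:60598292-60722643, minus strand), the beta subunit that pairs only with the product of Itgav and, in other tissues, binds and activates latent transforming growth factor beta. Its counts were 585, 423, 342, 397 and 486 in vehicle-treated mice, 168, 151, 110.0, 112 and 76.1 in semaglutide-treated mice, and 419, 702 and 809 with the ketone ester. Every semaglutide-treated mouse lay below every other mouse, and 2 of the 3 ketone ester-treated mice lay above the whole vehicle range. The log2 fold change was -1.87 ± 0.22 (adjusted p = 8.73e-05) under semaglutide and 2.37 ± 0.26 (adjusted p = 0.000231) for the ketone ester against semaglutide. Both were called under every alternative and without any 1 mouse, with an adjusted p of up to 0.000394 and 0.00345 when a mouse was left out and up to 0.00456 for the second over all alternatives. Against vehicle, the ketone ester-treated mice differed by 0.50 ± 0.26, which did not pass (adjusted p = 0.544).

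Itgav (chr2:83724397-83806916, plus strand), the alpha subunit that pairs with the product of Itgb6 and those of several other beta subunit genes, fell less. It had counts of 471, 484, 580.3, 669 and 505 in vehicle-treated mice, 448, 398, 369, 336 and 314 in semaglutide-treated mice, and 460.3, 535 and 568 with the ketone ester. Semaglutide values were below all others. The change was -0.54 ± 0.12 (adjusted p = 0.00522) under semaglutide, called under every scaling and without any 1 mouse, and 0.49 ± 0.14 (adjusted p = 0.0231) with the ketone ester. The second was lost without any 1 of mice 17, 21 and 22 (adjusted p up to 0.108), without the vehicle-treated mice in the model (0.0512) and with equal totals (0.25, adjusted p = 0.166).

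The beta subunits that can pair with the Itgav product differed in amount. Per kilobase in vehicle-treated mice, Itgb1 made up 62.0% of the 5, Itgb5 31.8%, Itgb6 5.69%, Itgb3 0.345% and Itgb8 0.107%. The Itgb6 share was 1.84% under semaglutide, with a range of 1.11% to 2.81%, and 9.15% with the ketone ester, with a range of 5.25% to 11.9%. The vehicle range of 4.65% to 7.31% did not overlap the semaglutide range. These shares are a description of transcripts with no test, and do not measure assembled receptors.

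Of the integrin subunit genes called in both pairs, Itga4, Itga8, Itgav and Itgb6, all on chromosome 2, the bases before the annotated start sites of 3 are shown, a choice made after their values were seen. They were read from RefSeq for GRCm38.p6, the same assembly as mm10. Exon bases of the GENCODE annotation were removed, and Itgb6 has 2 annotated starts. Capitals mark a match to CAGCTG, an E-box bound by myogenic factors, or GGGCGG, a GC box.

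Itgb6, distal start, chr2:60722644-60722853, minus strand: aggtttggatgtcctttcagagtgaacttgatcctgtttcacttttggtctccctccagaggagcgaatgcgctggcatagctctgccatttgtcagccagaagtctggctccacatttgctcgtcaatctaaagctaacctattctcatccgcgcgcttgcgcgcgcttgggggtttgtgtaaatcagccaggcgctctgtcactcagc
Itgb6, inner start, chr2:60673712-60673943, minus strand: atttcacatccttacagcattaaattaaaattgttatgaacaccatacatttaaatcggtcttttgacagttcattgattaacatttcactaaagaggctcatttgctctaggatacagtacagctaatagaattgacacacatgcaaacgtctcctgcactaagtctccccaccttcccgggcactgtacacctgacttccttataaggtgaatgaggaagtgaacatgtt
Itgav, chr2:83724147-83724396, plus strand: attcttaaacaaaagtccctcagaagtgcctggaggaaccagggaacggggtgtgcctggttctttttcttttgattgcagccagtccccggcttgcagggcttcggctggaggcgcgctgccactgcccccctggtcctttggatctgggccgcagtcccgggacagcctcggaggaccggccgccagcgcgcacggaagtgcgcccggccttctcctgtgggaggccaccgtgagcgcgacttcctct
Itga4, chr2:79255176-79255425, plus strand: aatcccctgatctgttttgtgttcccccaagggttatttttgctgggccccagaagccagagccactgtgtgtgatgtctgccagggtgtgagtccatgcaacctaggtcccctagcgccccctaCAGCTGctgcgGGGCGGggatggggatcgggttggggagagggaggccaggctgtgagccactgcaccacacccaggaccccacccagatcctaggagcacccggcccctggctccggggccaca

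The 250 bases before each start were searched on both strands for 5 motifs, and the share that held each was counted over the 32851 such windows of the RefSeq table. The myogenic E-box CAGCTG was in 13% of windows, the GC box GGGCGG in 32.7%, the TEAD site GGAATG in 12.6%, the TATA box TATAAA in 12.4% and the AP-1 site TGANTCA in 6.75%. Itga4 held an E-box that begins 125 bases before the start and a GC box that begins 114 bases before it. The Itgav window and both Itgb6 windows held none of these letters, and neither did that of Itga8, which says nothing about what binds there. In all, 26 of the 40 members matched the table, with 29 windows.

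Itga4 (chr2:79255426-79333123, plus strand), whose product pairs with those of Itgb1 and Itgb7 and binds fibronectin and Vcam1, had 1 semaglutide value far above the other 4. Its counts were 292, 324, 382, 299 and 281 in vehicle-treated mice, 458, 162, 131, 118 and 124 in semaglutide-treated mice, and 328, 399 and 302 with the ketone ester. Semaglutide mouse 13 had the highest value of all 13 mice, and the other 4 semaglutide values lay below every other mouse. With all mice the changes were -0.88 ± 0.29 (adjusted p = 0.0374) and 1.00 ± 0.34 (adjusted p = 0.0484), and without mouse 13 they were -1.24 (adjusted p = 5.62e-06) and 1.35 (adjusted p = 1.25e-05). The first call was lost without any 1 of the vehicle-treated mice or mice 14, 15, 16 and 17 (adjusted p up to 0.096), and the second without any 1 mouse other than 13 (up to 0.166). Neither passed in edgeR (-0.66 and 0.79, adjusted p = 0.137 and 0.13). Itga9, its nearest relative, was not called, with counts of 125 to 195 under vehicle, 149 to 258 under semaglutide and 123 to 162 with the ketone ester.

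Of the alpha subunits that bind the arginine-glycine-aspartate motif of fibronectin and vitronectin, Itga5 moved the other way. Itga5 (chr15:103344286-103366763, minus strand), the alpha subunit of the main fibronectin receptor, had counts of 198, 153, 115, 174 and 213 in vehicle-treated mice, 198, 304, 221, 367 and 213 in semaglutide-treated mice, and 179, 162 and 165 with the ketone ester. The 3 ketone ester values were lower than all 5 semaglutide values, and of the semaglutide-treated mice only mouse 13 was within the vehicle range, with mouse 17 just above it. The rise under semaglutide was 0.60 ± 0.19 (adjusted p = 0.0289), lost without any 1 of mice 2, 3, 14 and 16 (adjusted p up to 0.0715), and the ketone ester difference of -0.59 ± 0.22 did not pass (adjusted p = 0.0659). Itga8 (chr2:12106632-12301922, minus strand), a receptor for nephronectin found on contractile stromal cells, had counts of 34.3, 34.9, 43.3, 38.8 and 43.1 in vehicle-treated mice, 24.2, 20.3, 25.5, 15.5 and 37.3 in semaglutide-treated mice, and 54.7, 41.1 and 34.9 with the ketone ester. Mouse 17 was the only semaglutide-treated mouse inside the range of the other groups.

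The fold changes of Itga8 were -0.69 ± 0.22 (adjusted p = 0.0327) and 0.83 ± 0.26 (adjusted p = 0.0332). The first was lost without any 1 of mice 3, 4, 5, 14, 15 and 16 (adjusted p up to 0.0724) and the second without any 1 of mice 14, 16, 19, 21 and 22 (up to 0.138), and with equal totals neither passed (-0.52 and 0.60, adjusted p = 0.0712 and 0.0718). Neither passed with quantile normalization (0.0948 and 0.0935), sample weights (0.0725 and 0.0543) or no filter on low values (0.0557 and 0.0559). The first also failed in edgeR (0.0548) and DESeq2 (0.0505), and the second in limma without the vehicle-treated mice in the model (0.102). An antisense gene, E030013I19Rik, shares 6.40% of the exon bases of Itga8. Itga2b, the alpha subunit of the platelet fibrinogen receptor, stayed between 4.95 and 28.2 and was not called.

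The laminin-binding alpha subunits were not called in any pair. Itga7, the muscle fibre subunit, made up 52.1% of the alpha subunit signal per kilobase in vehicle-treated mice, 59.2% under semaglutide and 53.4% with the ketone ester, more than any other alpha subunit. Its counts were 1501 to 1674 under vehicle, 1655 to 2488 under semaglutide and 1389 to 1798 with the ketone ester, a difference of 0.27 ± 0.11 for semaglutide (adjusted p = 0.0871), which passed with equal totals. Itga3 and Itga6, which are more prominent in epithelium and endothelium, differed by -0.41 ± 0.16 and -0.30 ± 0.11 under semaglutide (adjusted p = 0.0718 and 0.0597). Of the collagen-binding subunits, Itga1, Itga10 and Itga11 were not called, and Itga2 was under the mean of 10, with counts of 4.58 to 19.3 under vehicle, 0 to 8.70 under semaglutide and 9.72 to 14.5 with the ketone ester. Itga1 was the most abundant of them, with 372 ± 44.7, 370.2 ± 57.9 and 439 ± 57.7 (SD, n = 5, 5 and 3). A same-strand gene model, Gm42957, shares 34.5% of the exon bases of Itga10, so its counts are uncertain.

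Itgb1, the common beta subunit and the most abundant integrin transcript, had 60.2% of the beta subunit signal per kilobase under vehicle, 59.2% under semaglutide and 62.6% with the ketone ester. Its counts were 2983, 3247, 2915, 3108 and 3005 in vehicle-treated mice, 2738, 2722, 2456, 2757 and 2553 in semaglutide-treated mice, and 3330.3, 2823 and 2671 with the ketone ester. The vehicle and semaglutide groups did not overlap, but the difference of -0.21 ± 0.07 did not pass (adjusted p = 0.0518). In all, 6 of the 34 members tested had no overlap between vehicle and semaglutide (Lama4, Lamb1, Lamc3, Itgav, Itgb1 and Itgb6), and 14.7% of all genes had none.

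Itgb4 (chr11:115974709-116008412, plus strand), which pairs with Itga6 and anchors to intermediate filaments in epithelium and nerve sheath, had counts of 124, 113, 174, 169.6 and 184 in vehicle-treated mice, 245, 242, 184, 162 and 263 in semaglutide-treated mice, and 208, 138 and 173 with the ketone ester. Mice 13, 14 and 17 were well above the vehicle range, mouse 15 was at its upper edge and mouse 16 was inside it. The rise of 0.52 ± 0.18 (adjusted p = 0.0423) was lost without any 1 of mice 1, 2, 4, 13, 14, 17 and 22 (adjusted p up to 0.108). It was also lost in limma without a mean-variance trend (0.0549), with no filter on low values (0.059) and without the ketone ester-treated mice in the model (0.0519). A fold of at least 1.5 was not reached. An antisense gene, B230344G16Rik, shares 8.41% of its exon bases.

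Itgb5, a vitronectin receptor subunit, had means of 1394 ± 103, 1357 ± 333 and 1031 ± 190.0 (SD, n = 5, 5 and 3). Its 3 ketone ester values of 1249, 899.9 and 943 lay below all 5 vehicle values, a difference of -0.45 ± 0.19 that did not pass (adjusted p = 0.417), and mouse 13, at 802, was the lowest of all mice. Itgb3 and Itgb8 were low, at 11.1 to 31.3 and 5.83 to 22.4 over the 13 mice, and were not called.

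Itgbl1 (chr14:123659971-123975618, plus strand), which encodes a secreted protein with repeats like those of integrin beta subunits, had counts of 48.1, 159, 96.5, 149.7 and 178 in vehicle-treated mice, 56.1, 72.1, 47.8, 46.6 and 37.3 in semaglutide-treated mice, and 75.3, 91.8 and 102 with the ketone ester. Vehicle mouse 1 was within the semaglutide range and the ketone ester values were all above it. The fall of -1.16 ± 0.30 (adjusted p = 0.0119) was called in every alternative and without any 1 mouse, and the ketone ester difference of 0.80 ± 0.35 did not pass (adjusted p = 0.116). Itgb3bp, which encodes a centromere protein, was not called.

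**Figure D3:**
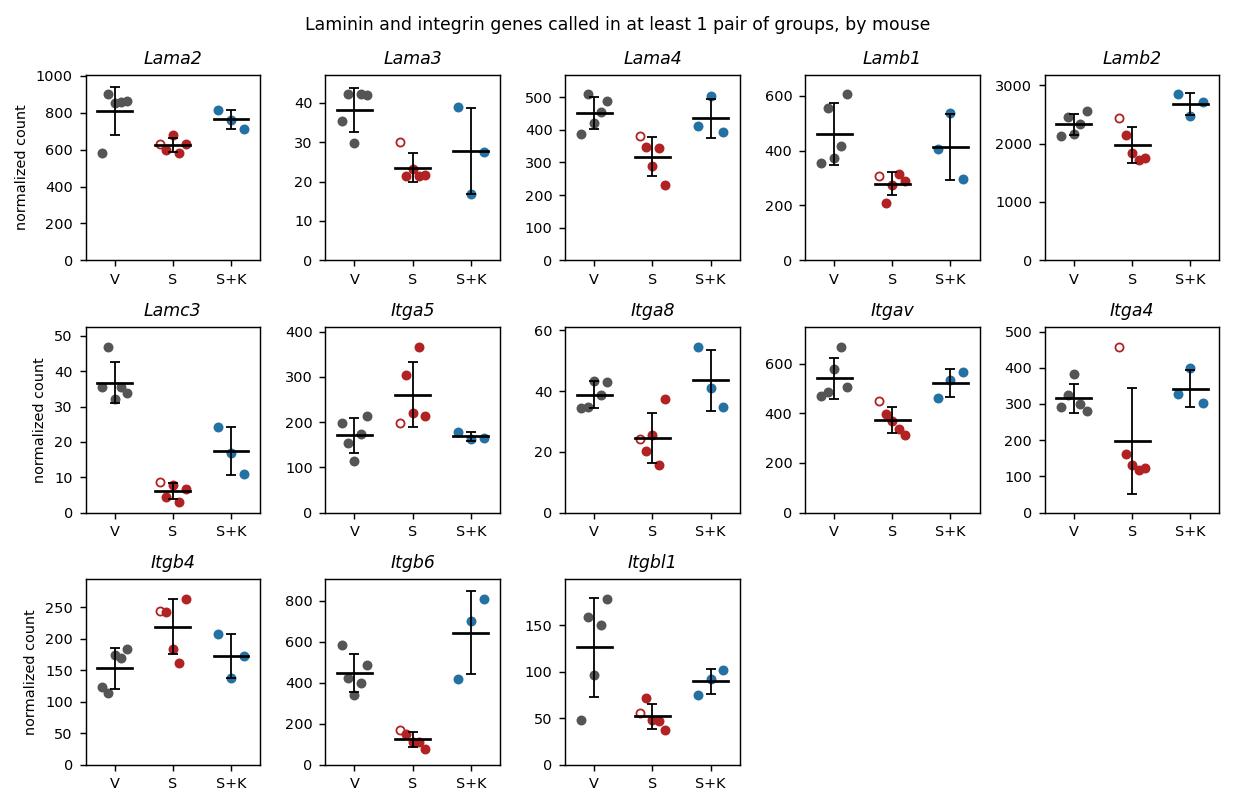
Normalized counts of the 13 genes called in at least 1 pair of groups, in each mouse given vehicle (V), semaglutide (S) or semaglutide + ketone ester (S+K), with the group mean and SD (bars). The open circle is semaglutide mouse 13. Itgb6, Lamc3, Lama4 and Itgav show semaglutide values below all others, and in Itga4 mouse 13 is the only semaglutide-treated mouse not below the other groups.

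For 5 of the 12 called genes, mouse 13 was not beyond the vehicle range in the direction of the call. It was within that range for Itga5, Itgbl1, Lama2 and Lama3 and above it for Itga4. The other 4 semaglutide-treated mice were within the vehicle range for 1 or 2 genes. Lama2 was within it in all 5, because of vehicle mouse 1. Without mouse 13, 16 members were called against vehicle instead of 12, 14 lower and 2 higher. The fewest were called without mouse 2, mouse 4 or mouse 14, with 7, 7 and 6, and leaving out some other mice also lowered the count.

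The 8 integrin genes listed as those of leukocytes separated 1 animal from the rest rather than the groups. Itga4, whose product pairs with that of Itgb7, was not on this list, and its lowest value, 118, was in mouse 16. Itgal, Itgam and Itgb2 (the subunits of LFA-1 and Mac-1) and Itgb7 were not called in any pair, while Itgad, Itgae, Itgax and Itgb2l were under the mean of 10, the last at 0 in every mouse. Semaglutide mouse 16 had counts of 63.1 for Itgal, 93.2 for Itgam, 136 for Itgb2 and 49.5 for Itgb7, each above the other 12 mice. The 4 genes reached at most 16.9, 50.1, 58.2 and 31.4 in any other mouse. The 8 leukocyte integrins summed to 433 in mouse 16 and to 75.4 to 84.5 in the other semaglutide-treated mice, 53.8 to 185 in vehicle-treated mice and 54.7 to 149.8 with the ketone ester. The sum of 17 leukocyte markers was 2865 in mouse 16, 868 to 1136 in the other 4, 639.7 to 1872 under vehicle and 917 to 1671 with the ketone ester, and none of the 10 markers tested differed between groups. No marker of the 17 was at 0 in every mouse, and their part in the integrin values was not tested. Mouse 16 also had the highest sum of 7 adipocyte markers, 15005 against 1696 to 6708 in the other mice. The gene model Gm49368 shares 70.0% of the exon bases of Itgam on the same strand, so the Itgam counts are uncertain.

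**Figure D4:**
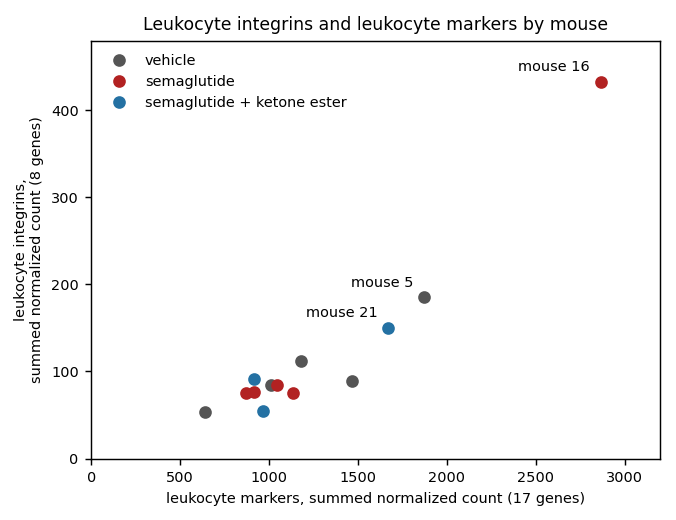
Summed normalized counts of the 8 leukocyte integrin genes (vertical axis) and of 17 leukocyte marker genes (horizontal axis) in each mouse, coloured by group. Mouse 16 lies at 2865 and 433, beyond every other mouse, and the next highest are vehicle mouse 5 and ketone ester-treated mouse 21.

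Genes listed as building the same basement membrane had a larger median change than the laminins, a difference that was not tested. The list was chosen with earlier results of these data known. Of 14 tested genes of a list of nidogens, perlecan, agrin, network collagens and their binding proteins, 11 were lower under semaglutide and none higher, with a median log2 fold change of -0.86 and 10 lower with equal totals. With the ketone ester 10 were higher than under semaglutide, 6 without mouse 21 and 5 with equal totals. Of all genes tested, 13.9% were lower under semaglutide, and 10% were higher with the ketone ester than under semaglutide. Col4a1 and Col4a2, the chains of the main network collagen, were 2272 ± 77.7 and 1964 ± 108 under vehicle (SD, n = 5), 911 ± 152 and 869 ± 113 under semaglutide (n = 5), and 1293 ± 77.9 and 1109 ± 36.4 with the ketone ester (n = 3). They were the only genes of 92 tested on the linked lists that still differed from vehicle with the ketone ester, by -0.81 ± 0.11 (adjusted p = 0.00992) and -0.82 ± 0.10 (adjusted p = 0.00554). That count was 3 without mouse 1 and 1 without mouse 22. Col15a1, a collagen at the junction of basement membrane and interstitium, differed by -2.40 ± 0.24 (adjusted p = 2.77e-05) and 2.03 ± 0.28 (adjusted p = 0.000579).

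Of 18 tested ligands of other integrins, 4 were lower under semaglutide (Fn1, Vtn, Fbn1 and Thbs4), where 26.5% of all genes differed. With the ketone ester 5 were higher than under semaglutide (the same 4 and Fbln5), where 20.7% of all genes differed. The first count was 9 without mouse 13, and the second was 8 without mouse 13 and 2 without any 1 of mice 17, 19 and 22. With equal totals 4 were lower and 1 higher in the first comparison and 2 higher and 2 lower in the second. Fn1, which encodes fibronectin, the ligand of the Itga5 product, fell by 1.53 on the log2 scale (adjusted p = 0.000729) while Itga5 rose. Fbn1, the microfibril component fibrillin, changed by -1.71 ± 0.18 (adjusted p = 4.13e-05), and Thbs4, a tendon thrombospondin, by -1.26 ± 0.29 (adjusted p = 0.00575).

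Inside the cell, 1 of 23 tested adaptor genes was higher under semaglutide and 6 were lower, while with equal totals 3 were higher and 2 lower. Over all genes with the deposited scaling, the share that differed under semaglutide was 26.5%. Pxn, which encodes the focal adhesion scaffold paxillin, rose by 0.33 ± 0.08 (adjusted p = 0.0104) and was lower with the ketone ester than under semaglutide, by -0.55 ± 0.10 (adjusted p = 0.00174). Itgb1bp2, which encodes melusin, a muscle protein that binds the Itgb1 tail, had counts of 1748, 1569, 1538, 1754 and 1706 in vehicle-treated mice, 1614, 503, 451, 391 and 356 in semaglutide-treated mice, and 1778, 2378 and 2533 with the ketone ester. Mouse 13 was again at the vehicle level, and the changes were -1.59 ± 0.31 (adjusted p = 0.0024) and 2.00 ± 0.36 (adjusted p = 0.0021). Fermt2, which encodes kindlin-2, an activator of integrins, differed by -0.49 ± 0.12 (adjusted p = 0.00851) and 0.44 ± 0.14 (adjusted p = 0.0366). The other adaptors that fell were Lims1, Parvb, Vcl and Flna, and Vcl was also higher with the ketone ester. The number called with the ketone ester against semaglutide was 4 with all mice, where 20.7% of all genes differed. It was 10 without mouse 13, 2 without any 1 of mice 14, 15, 17, 21 and 22, and 11 with equal totals, 10 of them lower.

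The dystroglycan complex, the other laminin receptor of muscle, differed in few genes. Of 13 tested, Sspn and Sgcd were lower under semaglutide, by -0.69 ± 0.09 (adjusted p = 0.000224) and -0.64 ± 0.21 (adjusted p = 0.0328), and the count was 5 without mouse 13 and 1 without any 1 of mice 1, 2, 3, 4, 5, 15, 16 and 17. With equal totals 1 was lower and 4 were higher. Dag1, which encodes dystroglycan, was not called, with 5221 ± 308, 5241 ± 192 and 4974 ± 428 (SD, n = 5, 5 and 3). With the ketone ester Sspn was higher (0.71 ± 0.11, adjusted p = 0.000953) than under semaglutide and 1 other gene of the complex was lower, a total of 2 that was 1 without mouse 21 or mouse 22 and 4 without mouse 13. With equal totals 1 gene of the complex was higher and 3 were lower. Of 13 genes that make the laminin-binding glycan of dystroglycan, 4 were lower under semaglutide, among them Pomgnt2 and B4gat1, and 1, Pomt2, was higher, while with equal totals 2 were lower and 4 higher. Pomgnt2 and B4gat1 were higher with the ketone ester than under semaglutide, a count of 8 without mouse 13 and 1 without any 1 of mice 19, 21 and 22, and with equal totals 4 were lower and none higher. Beside the counts of these lists, 26.5% of all genes differed under semaglutide and 20.7% with the ketone ester against semaglutide.

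Of 11 tested genes of the neuromuscular junction, where Lamb2 is concentrated, 3 were higher under semaglutide (Chrnb1, Chrna1 and Rapsn) and 2 lower (Colq and Ache), and with equal totals 4 were higher and none lower. Chrnb1 and Chrna1, subunits of the acetylcholine receptor, rose by 0.93 ± 0.10 (adjusted p = 3.72e-05) and 0.82 ± 0.11 (adjusted p = 0.000241). With the ketone ester 3 were lower than under semaglutide (Chrnb1, Musk and Rapsn) and 2 higher (Colq and Ache). With equal totals 1 was higher and 4 were lower in this comparison. The first count was 3 without any 1 of mice 1, 4, 5, 16 and 17 and 7 without mouse 13, and the second was 3 without any 1 of mice 17, 19, 21 and 22. Of all genes, 26.5% differed in the first comparison and 20.7% in the second.

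**Figure D5:**
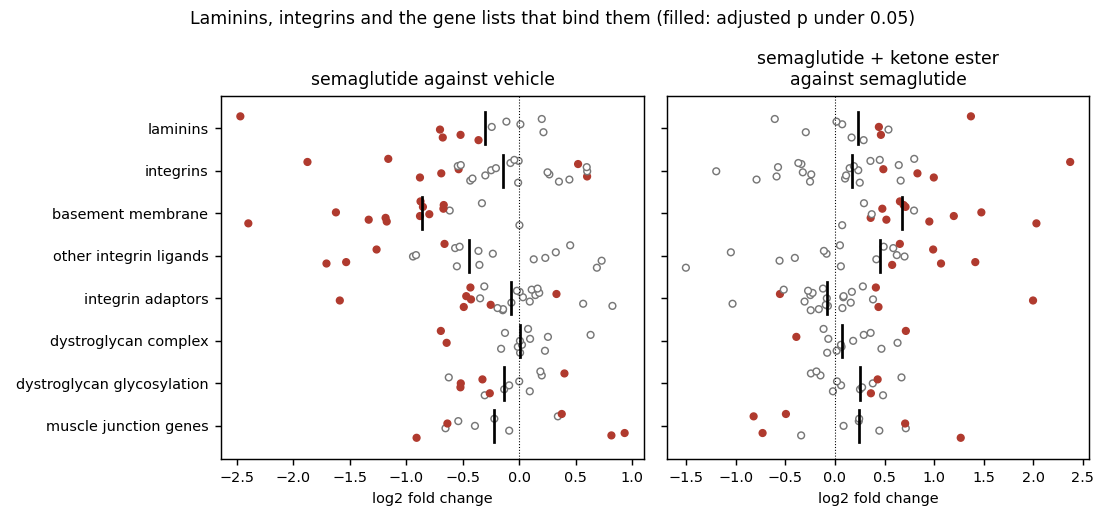
Log2 fold change of each tested laminin, integrin and linked gene for semaglutide against vehicle (left) and semaglutide + ketone ester against semaglutide (right), with the median of each list as a black line. Filled points passed an adjusted p of 0.05 in limma with the deposited scaling. The basement membrane list has medians of -0.86 and 0.67, farther from 0 than the laminins at -0.30 and 0.23, and with equal totals its calls kept their direction, 10 lower and 5 higher.

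Most markers of matrix-forming cells moved with the laminins and integrins that fell. Under semaglutide 9 of 10 fibroblast markers and 5 of 7 tenocyte markers were lower (7 and 5 with equal totals), including Col1a1, Col3a1 and Kera (log2 fold changes of -3.02, -3.14 and -5.15). Dcn, Scx and Mkx were not called, and the Scx mean was 103 under semaglutide against 77.8 under vehicle. The summed fibroblast markers ranged from 7247 to 16756 in vehicle-treated mice, 6059.6 to 8334 in semaglutide-treated mice and 9827 to 16064 with the ketone ester, and no fibroblast marker was at 0 in every mouse. Kera, which is normally found in cornea and tendon, was at 0 in mice 15 and 16. Vehicle mouse 1 had the lowest vehicle sums of fibroblast and tenocyte markers, 7247 and 1288, and of the 10 members that fell it had the lowest vehicle values of Lama2, Lama4, Lamb1, Itga8, Itgav and Itgbl1, but the highest of Itgb6 (585), with Lama3, Lamc3 and Itga4 in between. With the ketone ester 8 fibroblast markers were higher than under semaglutide (4 without mouse 21, and 6 with equal totals), and of the tenocyte markers 4 were higher and 1, Scx, was lower, in all 2 without mouse 21 or mouse 22. The tenocyte sums ranged from 1288 to 7308, 756 to 2822 and 3464 to 4333 in the 3 groups. By the same threshold 13.9% of all genes were lower under semaglutide, and 10% were higher with the ketone ester than under semaglutide. The part of these markers in the laminin and integrin values was not tested.

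Of 10 mural cell markers 4 were lower under semaglutide (Rgs5, Cspg4, Acta2 and Myh11), 2 lower and 1 higher with equal totals, with sums of 13219 to 16138 under vehicle, 10106 to 13057 under semaglutide and 13864 to 15136 with the ketone ester. No endothelial marker of 10 differed under semaglutide, with sums of 5911 to 7401 under vehicle and 5949 to 7047 under semaglutide, and 3 were higher with the ketone ester than under semaglutide (Kdr, Cdh5 and Emcn), none without mouse 22. With equal totals 2 endothelial markers were higher under semaglutide and 3 were lower with the ketone ester than under semaglutide. None of 8 Schwann cell, 7 adipocyte and 5 tested satellite cell markers, or the 1 platelet marker tested, Pf4, differed under semaglutide, but 4 adipocyte markers did without mouse 16. Of 10 muscle fibre markers, which had the highest sums of any list, Pvalb was lower under semaglutide (4 markers without mouse 13) and 4 were higher with the ketone ester than under semaglutide (Pvalb, Mylpf, Acta1 and Myh4), or 2 without mouse 21 or mouse 22. Sdc4, on the satellite cell list, was lower with the ketone ester than under semaglutide and than under vehicle, and neither call held without any 1 of mice 15, 17, 19, 21 and 22. Beside these marker counts, 26.5% of all genes differed under semaglutide and 20.7% with the ketone ester against semaglutide.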

How the data were processed

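RNA from the gastrocnemius of 13 mice was sequenced as paired-end reads from a stranded mRNA library, and the authors deposited 1 table of normalized read counts (a normalized signal, not whole counts) for 21868 genes. Per the study's methods the reads were aligned to mm10 with the DRAGEN RNA application. The submitters' processing notes also name DESeq2, with no role, and the counter, its strand setting, the annotation and the normalization are not given in the sources used here. Dividing each column by the value of 1 read gave whole reads for 100% of values within 0.01 read, and from these the depth was 15319471 to 23498162 reads on genes per mouse. The limit set by 3 reads was 2.24 to 3.71 normalized counts and covers counting error only.

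Groups were taken from the sample labels. Normalized counts were tested on log2(value + 1) with limma 3.58.1 in R 4.3.3, with a mean-variance trend and all 3 groups in 1 model, for the 12303 genes with a mean of at least 10, with Benjamini-Hochberg adjustment over these genes and a threshold of 0.05. A fold change on this scale understates that of low genes. The 3 comparisons share mice. On the recovered reads edgeR 4.0.16 called 3311, 2557 and 45 genes for semaglutide against vehicle, semaglutide + ketone ester against semaglutide and semaglutide + ketone ester against vehicle, and limma 3255, 2546 and 45. The limma test was tried on simulated data, and the edgeR test was not. DESeq2 1.42.0, other pseudocounts, filters and scalings, sample weights, a model of 2 groups and leaving out each mouse were further alternatives, and the model without a trend was added after the data were seen.

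The members and gene lists were chosen with earlier results of these data known. Every called member was named, with the most abundant member of each role, and up to 3 genes of each other list with the smallest adjusted p. Genes that make up a count of 5 or fewer, and the other adaptors and marker genes named, were chosen after their values were seen. A few genes that entered the counts are not reported here by name. Levels per kilobase used the merged exon length of GENCODE M21 (GRCm38, the same assembly as mm10), which also gave the gene coordinates.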

Additional observations from a re-analysis of the deposited data

Results flagged for a closer look

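In 68 groups of 5 mice (34 genes in the vehicle and semaglutide groups), the highest or lowest mouse was far from the nearest of the others in 10, where chance gives about 1 in 20, or 3.4. That rate is for normally distributed values, and genes of the same mouse can vary together, so 10 against 3.4 is no test. Semaglutide mouse 16 accounted for 5 of the 10. Its normalized counts were 471 for Itga1 (next 362), 63.1 for Itgal (next 16.9), 93.2 for Itgam, 136 for Itgb2 (next 32.9) and 49.5 for Itgb7 (next 17.8). Semaglutide mouse 13 accounted for 3, with 458 for Itga4 (next 162), 258 for Itga9 (next 175) and 30.0 for Lama3 (next 23.3). Vehicle mouse 1 was far below its group for Lama2, at 582 against 853 for the next, and vehicle mouse 2 was above it for Lamc3, at 47.0 against 35.5.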

How the results depend on the processing

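Of 19 calls of single members, none changed direction under the alternatives run, 7 held whichever 1 mouse was left out, and 5 of these also held under the other settings in which the gene was tested, 12 in all and 11 for Lamc3, which is not tested at a mean of at least 50 (both of Itgb6, and Lamc3, Lamb1 and Itgbl1 under semaglutide). Members called for semaglutide against vehicle numbered 12, and 6 to 16 with 1 mouse left out. For semaglutide + ketone ester against semaglutide there were 7, and 2 to 11 with 1 mouse left out, 4 with no filter on low values, 4 with a fold of at least 1.5 and 1 with only the 2 groups in the model. For semaglutide + ketone ester against vehicle there were 0 under every alternative run. Calls on the linked lists numbered 34 (28 to 49 with 1 mouse left out), 28 (16 to 47) and 2 (1 to 3). By an analysis of variance over the 3 groups at an unadjusted p under 0.05 with a fold of at least 1.5, 7 members were altered, against 16.1% of all genes. No paired analysis was possible because the mice carry no number or label that links them across groups. Where leaving out a mouse or changing a setting moved a count, the cause was not tested.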
